A study of Mus musculus with 6 samples.

Results

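The genes described here are p53 itself (Trp53), its inhibitors Mdm2 and Mdm4, and 7 genes that p53 is known to activate (Ccng1, Trp53inp1, Phlda3, Zmat3, Eda2r, Plk2 and Btg2). They were found in the deposited table of 55335 genes by their Ensembl identifiers, and all 10 had counts in every library. RNA sequencing of mouse embryonic fibroblasts (MEFs), adherent connective tissue cells of wild-type genotype, compared parental cells (Ctrl) with cells that had crossed a transwell membrane with 3 μm pores and were collected after 15 h (Confine). The labels give the same serum-containing growth medium for both groups, and the study compared them to find genes that regulate migration through narrow spaces. However, the paper's transwell protocol, written for wider pores, places cells in serum-free medium above medium with serum. Whether this was also done with the 3 μm pores is not stated. The table has 3 columns per group, and the columns labelled Confine replicates 1 and 2 hold identical values in every gene. They were counted as 1 library, here the repeated Confine library, so 3 Ctrl libraries were compared with 2 Confine libraries. The MEF line came from another laboratory, and how it was immortalised, if it was, and the state of its p53 protein are not given in the sources used here. Nothing says that the libraries came from separate cultures, so p-values measure only the spread between these libraries, which may be technical. Passage through the pores, any difference in serum, culture on the membrane and selection of the cells that crossed it cannot be told apart in this design.

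The p53 protein is a transcription factor that is stabilised when cells meet DNA damage or other stress. It binds response elements in DNA and activates genes for cell cycle arrest, DNA repair, cell death and metabolism. MDM2 is a ubiquitin ligase that marks p53 for degradation, MDM4 (MDMX) binds p53 and blocks its activity, and Mdm2 is itself a p53 target, which closes a negative feedback loop. p53 is regulated mostly at the level of its protein, so its own mRNA says little about its activity.

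The promoters of 4 genes are shown because they hold a known type of binding element in genes with different values below. Promoter windows of 300 bases, from 250 before to 50 after the annotated start, were taken from RefSeq (GRCm38.p6) for 8 of the 10 genes. Trp53inp1 and Zmat3 had no entry. The p53 response element was searched by its name on both strands as a pair of 10-base units without a spacer, with up to 2 mismatches. This search, and that of the cAMP response element TGACGTCA described next to it, was chosen after the values were seen. Among the 9 windows of these genes, only that of Ccng1 (chr11:40755237-40755536, minus strand) held the p53 element. It had 1 mismatch and lay 195 bases before the start. Cdkn1a, which encodes the cell cycle inhibitor p21 and is the best known p53 target, is shown for comparison (chr17:29090729-29091028, plus strand), with an element of 1 mismatch 51 bases before the start of one of its 2 RefSeq windows. An element with at most 1 mismatch stood in 0.0814% of all 27025 genes with a window, and one with at most 2, the limit of the search, in 0.392%. The palindrome TGACGTCA, which CREB family factors bind, was found in Plk2 (chr13:110394794-110395093, plus strand), 62 bases before the start, and in Btg2 (chr1:134079106-134079405, minus strand), 166 bases before it, against 2.03% of all genes. Capitals mark these elements in the sequences, which run 5′ to 3′ along each gene's strand.
Ccng1: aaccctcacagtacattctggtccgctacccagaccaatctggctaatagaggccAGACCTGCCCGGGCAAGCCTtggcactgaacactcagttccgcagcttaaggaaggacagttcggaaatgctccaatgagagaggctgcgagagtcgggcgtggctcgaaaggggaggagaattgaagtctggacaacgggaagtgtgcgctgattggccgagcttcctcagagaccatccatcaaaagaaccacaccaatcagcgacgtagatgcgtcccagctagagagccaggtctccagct
Cdkn1a: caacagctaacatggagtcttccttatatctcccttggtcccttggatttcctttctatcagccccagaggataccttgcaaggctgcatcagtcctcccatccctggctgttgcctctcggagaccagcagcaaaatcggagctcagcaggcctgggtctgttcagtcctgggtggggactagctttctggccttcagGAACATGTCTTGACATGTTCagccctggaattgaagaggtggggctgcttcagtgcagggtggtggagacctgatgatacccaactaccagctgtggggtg
Plk2: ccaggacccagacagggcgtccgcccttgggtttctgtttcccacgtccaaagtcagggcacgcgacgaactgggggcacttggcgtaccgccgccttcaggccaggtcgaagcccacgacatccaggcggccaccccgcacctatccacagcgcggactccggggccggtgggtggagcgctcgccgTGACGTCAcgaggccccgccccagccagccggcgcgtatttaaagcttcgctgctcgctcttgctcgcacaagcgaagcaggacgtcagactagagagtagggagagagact
Btg2: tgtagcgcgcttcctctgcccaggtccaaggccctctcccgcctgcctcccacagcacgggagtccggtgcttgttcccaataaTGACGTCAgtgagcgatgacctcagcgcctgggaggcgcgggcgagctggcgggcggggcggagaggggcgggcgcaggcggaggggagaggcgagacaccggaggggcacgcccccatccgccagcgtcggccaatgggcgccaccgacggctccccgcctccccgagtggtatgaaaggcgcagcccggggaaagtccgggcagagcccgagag
A match of letters is a description and not a measured binding site. A window without a match, as for Mdm2 and Phlda3, says only that these letters are not in these 300 bases, and the p53 element of Mdm2 is known to lie in its intron, outside this window.

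The libraries held between 22287210 and 27853805 counts in Ctrl and 27290138 and 32537550 in Confine. Counts were scaled by edgeR's TMM method to normalized CPM (counts scaled to a common library total), in which 3 counts are worth 0.101 to 0.128 CPM. The fold changes below are log2 values, Confine minus Ctrl, with a standard error (SE), and the adjusted p is that of the quasi-likelihood test of edgeR, adjusted by the Benjamini-Hochberg method over all 15881 tested genes. A gene passed the test at an adjusted p under 0.05. Of all tested genes, 23% passed, 12.8% higher and 10.2% lower in Confine. Scaling by library size without TMM shifted the median log2 fold change of all tested genes by -0.21.

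Against this background, 3 of the 10 genes passed the test. Mdm2 and Plk2 were upregulated in Confine, Ccng1 was downregulated, and the other 7 did not pass. The changes were small. The log2 fold changes ran from -0.71 to 0.64, between the percentiles 13.2 and 83.5 of all tested genes, and their median size of 0.39 was that of all tested genes (0.39). Of the 10 genes, 0 reached an absolute log2 fold change above 1.5 with an adjusted p under 0.05 by edgeR, as 8% of all tested genes did (4.89% higher and 3.11% lower). The Ctrl and Confine libraries did not overlap in 5 of the 10 genes (Mdm2, Phlda3 and Plk2 higher, Trp53 and Ccng1 lower), against 49.5% of all tested genes (25.9% higher and 23.6% lower). The 10 genes therefore moved in both directions, and their shares were near those of the genes at large.

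**Figure D1:**
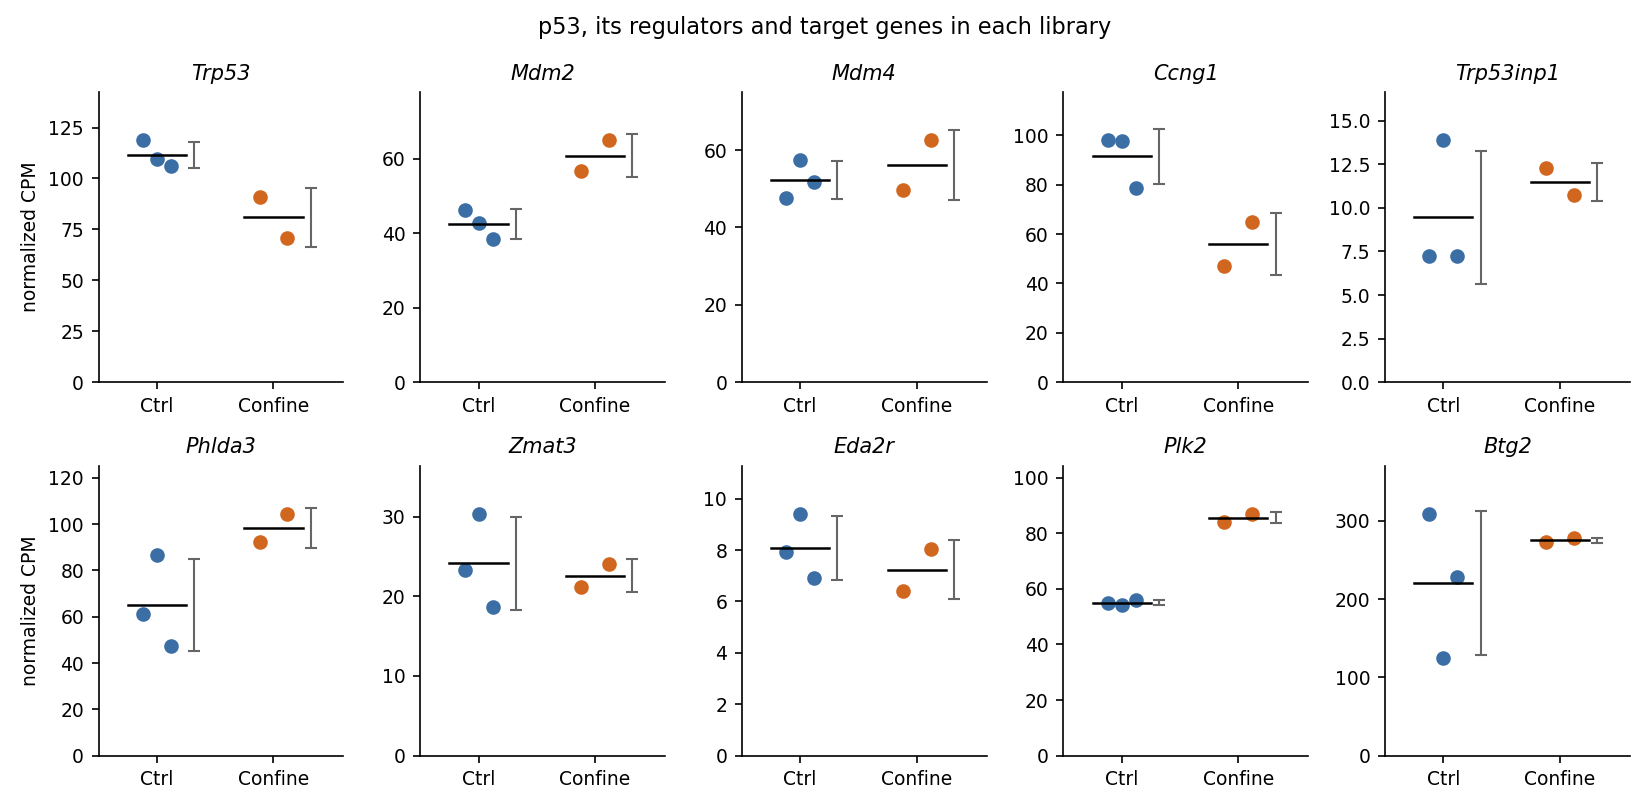
Normalized CPM (y axis, from 0) of each of the 10 genes in the 3 Ctrl libraries (blue points) and 2 Confine libraries (orange points), with the mean (black line) and SD (grey bar). The groups stand apart in Trp53, Mdm2, Ccng1, Phlda3 and Plk2, and Plk2 lies at 54.3 to 55.9 CPM in Ctrl and 84.2 and 87.0 CPM in Confine.

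Trp53 (ENSMUSG00000059552.13), the gene of p53, lies on the plus strand of chromosome 11 from 69580359 to 69591873 (GRCm38, as are all gene positions here, from GENCODE M21). It had 118.7, 109.6 and 106.1 normalized CPM in Ctrl and 91.1 and 70.6 in Confine. Both Confine libraries were below all Ctrl libraries, and the Ctrl libraries lay close together (111.5 ± 6.52 CPM, SD, n = 3). The Confine mean was 80.9 ± 14.5 CPM (SD, n = 2). The log2 fold change of -0.46 (SE 0.19, 95% interval -0.85 to -0.07) did not pass the test after adjustment over all genes (edgeR adjusted p = 0.084). Trp53 is 97.7% identical over 353 bases to the pseudogene Trp53-ps, at a mean of 11.2 counts against at least 1778 in every library for Trp53. The part of reads shared between them was not tested. Scaled by library size alone, Trp53 had a log2 fold change of -0.67 (edgeR adjusted p = 0.011), and over all fits tried it ranged from -0.67 to -0.29. Here as in each gene below, bulk libraries cannot tell fewer cells with the transcript from less RNA per cell.

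Mdm2 (ENSMUSG00000020184.15, chromosome 10 from 117688875 to 117710758, minus strand) was upregulated. It had 46.3, 42.8 and 38.4 normalized CPM in Ctrl and 56.6 and 64.9 in Confine. Each Confine library was above each Ctrl library, and the gap between the groups was wider than the difference between the Confine libraries. The log2 fold change was 0.52 (SE 0.18, 95% interval 0.14 to 0.90, edgeR adjusted p = 0.047), which is 1.43-fold higher. Fits other than the main one, 14 here and for the genes below, include that of all columns as separate samples. That fit enters the repeated Confine library more than once. The adjusted p of Mdm2 was just under the threshold, and 6 of these 14 fits kept it there. The edgeR adjusted p was 0.084 without Ctrl replicate 1 and 0.161 without Ctrl replicate 3, fits in which 17.8% and 22.2% of all tested genes passed. Leaving out 1 Confine library lowered the number of calls over all genes, so calls lost there are not particular to a gene. With each library left out, the log2 fold change of Mdm2 stayed between 0.41 and 0.61. It was 0.31 with library size alone (edgeR adjusted p = 0.229) and 0.50 with RLE size factors (edgeR adjusted p = 0.055).

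Mdm4 (ENSMUSG00000054387.13, chromosome 1 from 132959484 to 133030561, minus strand) had 47.5, 57.4 and 51.7 normalized CPM in Ctrl and 49.7 and 62.5 in Confine. The groups overlapped, with a Confine library on each side of the highest Ctrl library. Its log2 fold change was 0.10 (SE 0.19, 95% interval -0.29 to 0.50, edgeR adjusted p = 0.747) and turned to -0.11 with library size alone. The interval of Mdm4 overlapped that of Mdm2 (0.14 to 0.90), and the difference between the 2 genes was not tested.

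Since a ratio of 2 genes in the same library does not depend on how libraries are scaled, the inhibitors were also set against Trp53 per exon length, a comparison chosen after the values were seen and given without a test. The ratio of Mdm2 to Trp53 was 0.310, 0.311 and 0.288 in Ctrl and 0.495 and 0.731 in Confine. The 3 Ctrl ratios were nearly equal, and the mean ratio was 2.02 times higher in Confine. The ratio of Mdm4 to Trp53 was 0.109, 0.143 and 0.133 in Ctrl and 0.149 and 0.242 in Confine, with the repeated Confine library just above the highest Ctrl library. The ratio of Mdm2 to Mdm4 was 2.83, 2.17 and 2.16 in Ctrl and 3.32 and 3.02 in Confine. In each of these ratios every Confine value was higher than every Ctrl value. The groups also did not overlap in 49.5% of all tested genes taken singly, and this share was not computed for ratios. The ratios share the genes Trp53, Mdm2 and Mdm4, so they are not separate results.

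Among the target genes, Ccng1 (ENSMUSG00000020326.7, chromosome 11 from 40748552 to 40755311, minus strand), which encodes cyclin G1, a partner of the phosphatase PP2A in the control of MDM2, was downregulated. It had 98.0, 97.9 and 78.6 normalized CPM in Ctrl and 47.2 and 65.0 in Confine. All Ctrl libraries were higher than both Confine libraries, with the lowest value in the repeated Confine library. The log2 fold change was -0.71 (SE 0.20, 95% interval -1.13 to -0.29, edgeR adjusted p = 0.015), the largest decrease of the 10 genes. Its promoter window is the one with the p53 element shown above. The call was kept in 12 of 14 other fits of the gene. Without the repeated Confine library the log2 fold change was -0.49 (edgeR adjusted p = 0.249, with Confine replicate 3 assumed to vary like the Ctrl libraries).

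Plk2 (ENSMUSG00000021701.8, chromosome 13 from 110395046 to 110400844, plus strand), a polo-like kinase of the centrosome cycle and stress response, had the largest increase of the 10 genes and the smallest coefficient of variation in Ctrl. It had 55.1, 54.3 and 55.9 normalized CPM in Ctrl and 84.2 and 87.0 in Confine. The coefficient of variation was 1.46% in Ctrl and 2.28% in Confine, and the gap between the groups was wider than this spread. A spread taken from so few libraries is imprecise, and the SE of the fit, given next, is larger. The log2 fold change was 0.64 (SE 0.17, 95% interval 0.27 to 1.00, edgeR adjusted p = 0.012), which is 1.55-fold higher. It ranged from 0.43 to 0.66 over all fits, and 10 of 14 other fits kept the call. The adjusted p of edgeR was 0.077 with library size alone, 0.080 without the repeated Confine library and 0.116 without Confine replicate 3.

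Btg2 (ENSMUSG00000020423.6, chromosome 1 from 134075170 to 134079120, minus strand), an antiproliferative gene that p53 and growth signals both induce, had 308.8, 124.8 and 228.5 normalized CPM in Ctrl and 273.0 and 277.5 in Confine. The Confine libraries were nearly equal and lay inside the wide Ctrl range. Its log2 fold change of 0.32 (SE 0.26, 95% interval -0.23 to 0.86, edgeR adjusted p = 0.422) rested on Ctrl replicate 2, without which it was 0.03. The Ctrl coefficient of variation of 41.8% was the largest among the 10 genes.

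Phlda3 (ENSMUSG00000041801.5, chromosome 1 from 135766119 to 135769136, plus strand), an inhibitor of AKT signalling, had 61.1, 86.6 and 47.5 normalized CPM in Ctrl and 92.1 and 104.4 in Confine. Both Confine values exceeded those of Ctrl, but the highest Ctrl library came close to them. A log2 fold change of 0.59 (SE 0.22, 95% interval 0.13 to 1.05) missed the threshold (edgeR adjusted p = 0.059). Without Ctrl replicate 2, the highest Ctrl library, the log2 fold change was 0.85 (edgeR adjusted p = 0.0024), and with limma-voom the adjusted p was 0.043.

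Trp53inp1 (ENSMUSG00000028211.11, chromosome 4 from 11156431 to 11174379, plus strand) encodes a stress-induced protein that promotes p53 activity and autophagy. It had 7.25, 13.9 and 7.23 normalized CPM in Ctrl and 12.3 and 10.7 in Confine. Ctrl replicates 1 and 3 were below both Confine libraries, and Ctrl replicate 2 was above both. Its log2 fold change was 0.28 (SE 0.27, 95% interval -0.28 to 0.85, edgeR adjusted p = 0.503) and became 0.66 (edgeR adjusted p = 0.029) without Ctrl replicate 2. With library size alone it was 0.07 (edgeR adjusted p = 0.887), and 2 of 14 other fits brought the gene under the threshold.

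Zmat3 (ENSMUSG00000027663.12, chromosome 3 from 32334792 to 32366014, minus strand), an RNA-binding zinc finger gene with tumour suppressor activity, had 23.3, 30.3 and 18.7 normalized CPM in Ctrl and 21.1 and 24.0 in Confine. The Confine libraries lay inside the Ctrl range. This gave a log2 fold change of -0.10 (SE 0.21, 95% interval -0.55 to 0.35, edgeR adjusted p = 0.796). Eda2r (ENSMUSG00000034457.10, X chromosome from 97333840 to 97377216, minus strand), a receptor of the tumour necrosis factor receptor family for ectodysplasin A2, had 7.95, 9.41 and 6.93 normalized CPM in Ctrl and 6.42 and 8.06 in Confine. Its groups overlapped, with the lowest value in the repeated Confine library. This gave a log2 fold change of -0.16 (SE 0.24, 95% interval -0.67 to 0.34, edgeR adjusted p = 0.683).

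The target genes thus differed among themselves within the Ctrl group as well. Trp53inp1, Phlda3, Zmat3 and Eda2r, and with them Mdm4, were highest in Ctrl replicate 2, where Btg2 was lowest. Trp53 and Mdm2 were highest in Ctrl replicate 1. The Ctrl coefficient of variation was 40.5% in Trp53inp1, 30.5% in Phlda3 and 24.3% in Zmat3, and at most 15.4% in Trp53, Mdm2, Mdm4, Ccng1, Eda2r and Plk2. Of the 10 genes, Btg2, Trp53inp1 and Phlda3 were those in which 1 Ctrl library moved the log2 fold change most.

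**Figure D2:**
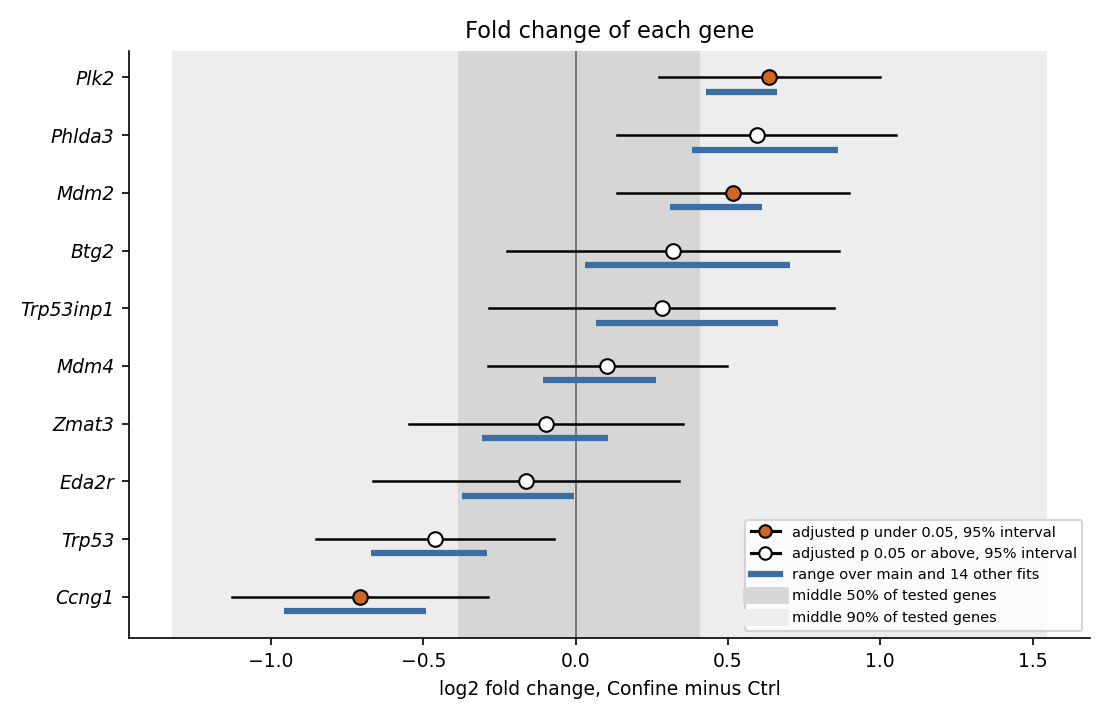
Log2 fold change (x axis, Confine minus Ctrl) of each gene with its 95% interval (black line), the range over the main and 14 other fits (blue bar) and the middle 50% and 90% of all tested genes (grey bands, -1.32 to 1.54 for the wider one). Filled points are Plk2, Mdm2 and Ccng1, with an adjusted p under 0.05, and all 10 genes lie within the middle 90%.

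Per kb of annotated exon, the levels of the 10 genes spanned a wide range. In Ctrl, Btg2 was highest at 80.5 ± 33.6 normalized CPM per kb (SD, n = 3), followed by Phlda3 (41.7 ± 12.7), Trp53 (27.6 ± 1.61), Ccng1 (26.0 ± 3.18), Plk2 (12.3 ± 0.18), Mdm2 (8.36 ± 0.77), Mdm4 (3.53 ± 0.33), Zmat3 (2.11 ± 0.51), Trp53inp1 (1.46 ± 0.59) and Eda2r (1.37 ± 0.21). Neighbours in this order overlapped between Btg2 and Phlda3, between Trp53 and Ccng1, between Zmat3 and Trp53inp1, and between Trp53inp1 and Eda2r, and the other neighbours did not overlap. In Confine, Plk2 stood at 19.1 ± 0.43 CPM per kb (SD, n = 2), level with Trp53 (19.99 ± 3.59) and above Ccng1 (16.0 ± 3.58). The ratio of Plk2 to Ccng1 in the same library was 0.440, 0.434 and 0.556 in Ctrl and 1.39 and 1.05 in Confine, so the order of these 2 targets turned over. The ratio of Mdm2 to Ccng1 was 0.326, 0.302 and 0.338 in Ctrl and 0.829 and 0.690 in Confine. Both ratios were chosen after the values were seen. Exon length counts every annotated exon, so genes with long, rarely used exons such as Mdm4 and Zmat3 may be placed too low.

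**Figure D3:**
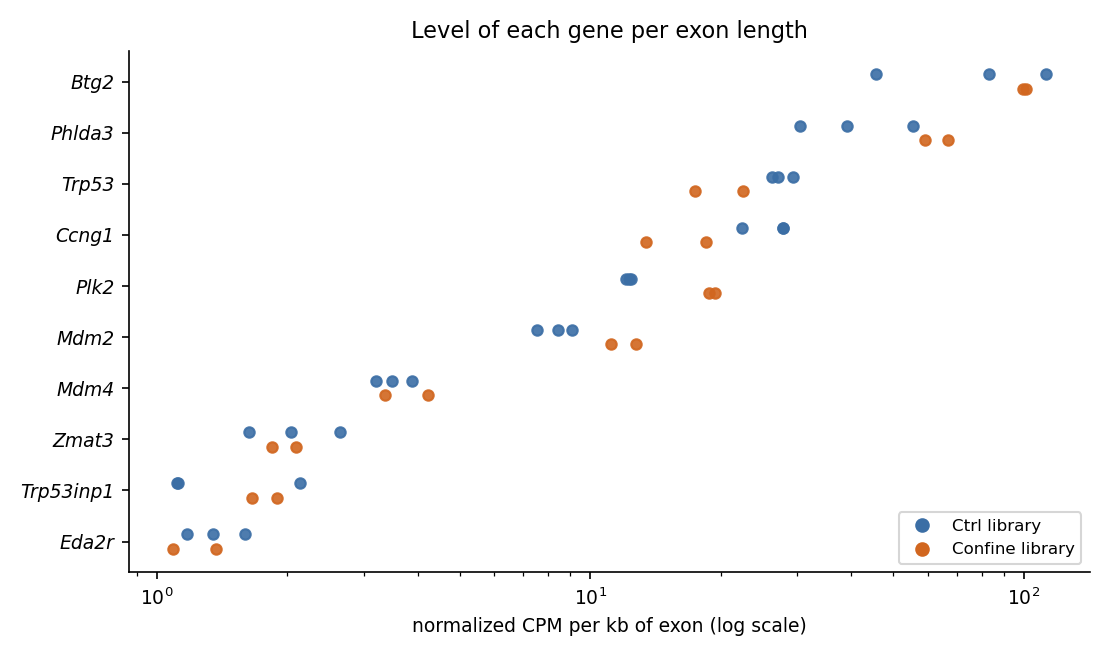
Normalized CPM per kb of exon (x axis, log scale) of each gene in the 3 Ctrl libraries (blue) and the 2 Confine libraries (orange), ordered by the Ctrl mean. Plk2 lies between Mdm2 and Ccng1 in Ctrl and above Ccng1 in both Confine libraries.

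Other genes of the pathway were taken from lists by role, and whether p53 acts on each of them in these cells was not tested. Of 27 other p53 regulators, 26 were tested, and 3 were upregulated and 5 downregulated. This was 30.8% of those tested, against 23% of all tested genes. The median log2 fold change was -0.01 against -0.002 over all tested genes. The upregulated regulators were Ppp1r13l (iASPP, an inhibitor of p53), at a log2 fold change of 1.02 (SE 0.24), Cdkn2a, which encodes the MDM2 inhibitor ARF and the kinase inhibitor p16, at 0.91 (SE 0.25), and the DNA damage kinase Atr at 0.66 (SE 0.23). Cdkn2a had 5.36, 8.54 and 9.82 normalized CPM in Ctrl and 13.2 and 16.4 in Confine, and gene counts do not separate ARF from p16. Atr was just under the threshold (edgeR adjusted p = 0.0499), and 4 of 14 other fits kept its call, with 0.163 without Ctrl replicate 1, 0.152 without Ctrl replicate 3, 0.150 without the repeated Confine library and 0.251 without Confine replicate 3. Without Confine replicate 3 the edgeR adjusted p was 0.107 for Ppp1r13l and 0.174 for Cdkn2a, and without Ctrl replicate 1 it was 0.076 for Cdkn2a.

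The downregulated regulators were led by the checkpoint kinase Chek1, at a log2 fold change of -1.91 (SE 0.27), the p53 relative Trp63 at -1.49 (SE 0.47), which had at most 75 counts in any library, the p53 phosphatase Ppm1d at -1.20 (SE 0.30) and the deacetylase Sirt1 at -1.03 (SE 0.27). The fifth was the methyltransferase Kmt5a at -0.58, outside the naming rule. Ppm1d, itself a p53 target, had 4.87, 3.97 and 4.04 normalized CPM in Ctrl and 1.86 and 1.87 in Confine. All Ctrl libraries of Ppm1d and Chek1 were above both Confine libraries. Trp63 kept its call in 8 of 14 other fits, and its edgeR adjusted p was 0.129 without Ctrl replicate 1, 0.053 without Ctrl replicate 3, 0.097 without the repeated Confine library and 0.184 without Confine replicate 3. Leaving out the repeated Confine library or Confine replicate 3 gave 0.057 and 0.055 for Ppm1d and 0.057 and 0.087 for Sirt1. The p53 relative Trp73 was not tested, with at most 1 count.

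Of 16 genes listed as p53 targets for cell cycle arrest and DNA repair, 6 were upregulated and 2 downregulated. The median log2 fold change of the list was 0.35, and 50% passed the test, against 23% of all tested genes. Cdkn1a had 315.4, 336.6 and 224.1 normalized CPM in Ctrl and 1921 and 2014 in Confine. This change, at a log2 fold change of 2.75 (SE 0.20, edgeR adjusted p = 1.26e-08), was larger than that of any of the 10 genes. Ccng2, which encodes cyclin G2 and is a relative of Ccng1, had 9.33, 17.4 and 13.6 normalized CPM in Ctrl and 74.0 and 79.7 in Confine, a log2 fold change of 2.52 (SE 0.22, edgeR adjusted p = 1.66e-07). Btg1, a relative of Btg2, had a log2 fold change of 1.59 (SE 0.17) and the translesion polymerase gene Polk 0.82 (SE 0.18), and the repair genes Xpc and Ercc5 also passed the test. The cyclin G and BTG relatives outside the 10 genes therefore had the larger positive values, and the differences between relatives were not tested.

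The downregulated genes in this list were Gtse1, a p53-inhibiting gene of the G2 and S phases, at -1.502 (SE 0.21), and the stress sensor Sesn1 at -0.87 (SE 0.25). For Sesn1 the edgeR adjusted p was 0.176 without the repeated Confine library and 0.064 without Confine replicate 3, and for Polk it was 0.061 without the latter. Within the same library and per exon length, the ratio of Cdkn1a to Ccng1 was 3.18, 3.40 and 2.82 in Ctrl and 40.2 and 30.7 in Confine, and that of Cdkn1a to Trp53 3.02, 3.50 and 2.41 in Ctrl and 24.0 and 32.5 in Confine. Ccng1 and Cdkn1a, shown above with a p53 element of 1 mismatch, had log2 fold changes of opposite sign. Windows of the other listed targets were not examined gene by gene, and binding was not measured.

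Of 16 cell death targets, 3 were downregulated and 0 upregulated by edgeR, and 0 were higher at an unadjusted p under 0.05 or by DESeq2 or limma-voom. The median log2 fold change was -0.14. In this list 18.75% passed the test, against 23% of all tested genes (12.8% higher and 10.2% lower). Bax, which permeabilises mitochondria, had 190.1, 180.5 and 179.4 normalized CPM in Ctrl and 156.7 and 181.0 in Confine, a log2 fold change of -0.12 (SE 0.18, edgeR adjusted p = 0.685). Bbc3, which encodes the BH3 protein PUMA, had 12.8, 13.6 and 12.97 normalized CPM in Ctrl and 11.96 and 13.5 in Confine, a log2 fold change of -0.05 (SE 0.20, edgeR adjusted p = 0.904). For both genes the groups overlapped. The downregulated genes were Trp53i11 at -2.34 (SE 0.70, with 15 to 27 counts in Ctrl and 2 and 6 in Confine), the mitotic gene Ckap2 at -1.31 (SE 0.23) and Pidd1, the scaffold of caspase 2 activation, at -0.76 (SE 0.27, edgeR adjusted p = 0.049). Of 14 other fits, 6 kept the call of Pidd1, whose edgeR adjusted p was 0.161 without Ctrl replicate 1, 0.070 without Ctrl replicate 2, 0.290 without the repeated Confine library and 0.106 without Confine replicate 3. Trp53i11 had -1.67 (edgeR adjusted p = 0.215) without the repeated Confine library.

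Of 20 metabolic and secreted targets, 18 were tested, 7 were upregulated and 1 downregulated, with a median log2 fold change of 0.25. Among those tested, 44.4% passed, against 23% of all tested genes. Ndrg1, which hypoxia also induces, had 30.7, 40.1 and 37.2 normalized CPM in Ctrl and 570.5 and 766.3 in Confine, a log2 fold change of 4.21 (SE 0.20). The glutaminase gene Gls2 had 3.16 (SE 0.31), the cytokine gene Lif 3.16 (SE 0.24) and the epoxide hydrolase gene Ephx1 0.90 (SE 0.18). Tigar, which lowers glycolysis, was the downregulated gene at -1.03 (SE 0.32), but its Confine libraries differed by a coefficient of variation of 40.8%, and without Confine replicate 3 it had -0.68 (edgeR adjusted p = 0.275). Gdf15, a secreted stress protein and frequent p53 target, had between 2 and 17 counts in each library, and its log2 fold change of -0.24 (SE 0.83, edgeR adjusted p = 0.873) was too imprecise to give a direction.

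The list with the most uniform change was that of cell cycle genes that p53 and p21 are known to repress through the DREAM complex. All 12 were downregulated, against 10.2% of all tested genes. Their median log2 fold change was -1.71, from -2.04 for the replication helicase gene Mcm5 to -0.96 for Cenpa. Cyclin B2 (Ccnb2) had -1.98 (SE 0.24), Plk1 -1.96 (SE 0.23) and Cdc25c -1.79 (SE 0.25). The summed level of the 12 genes was between 1620 and 1983 normalized CPM in Ctrl and 514 and 771 in Confine. These genes are also general markers of dividing cells, and the list was not tested against other genes.

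**Figure D4:**
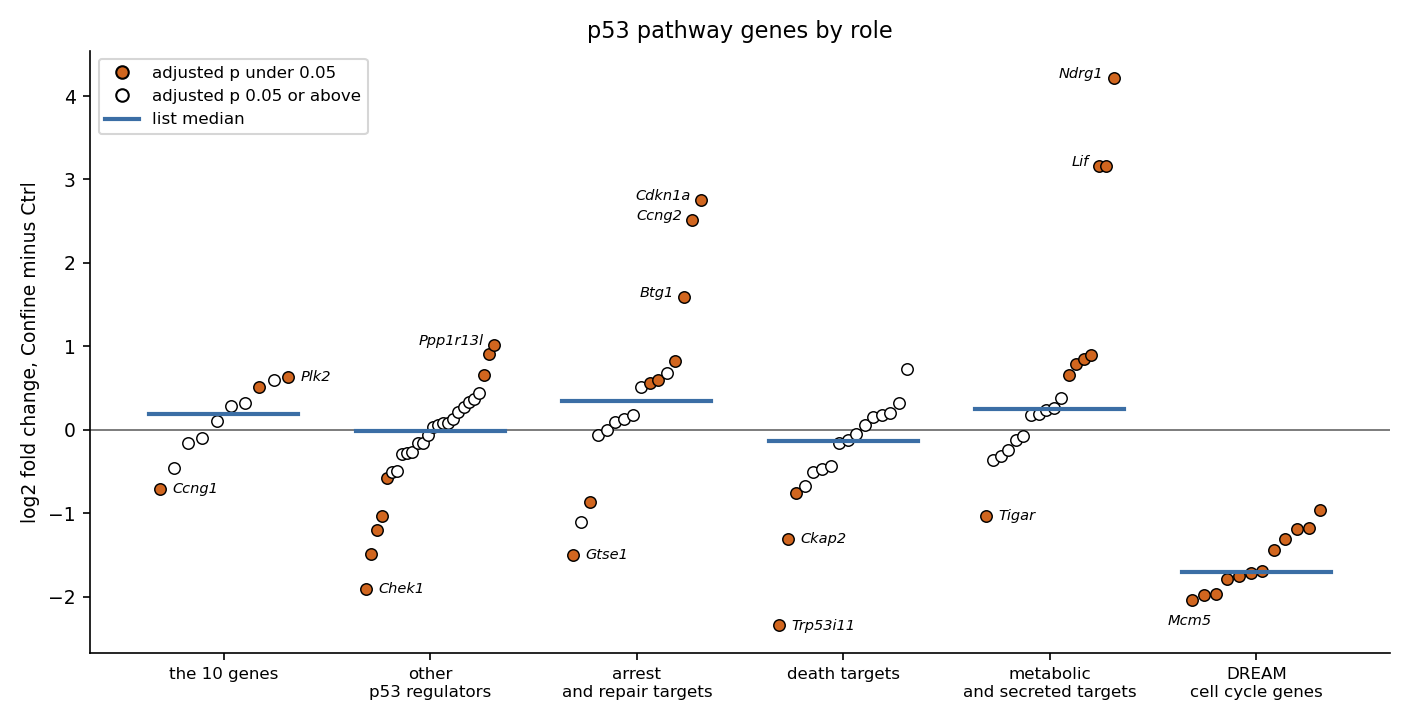
Log2 fold change (y axis, Confine minus Ctrl) of each tested gene, grouped by role and sorted within each group, with the list median (blue line). Filled points have an adjusted p under 0.05. The 10 genes lie between -0.71 and 0.64, Cdkn1a (2.75) and Ndrg1 (4.21) lie far above them, and all 12 DREAM genes lie below 0.

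The identity of the cells was checked with marker genes. Of all tested genes, 12.8% were higher and 10.2% lower, which holds as background for each marker list. Of 10 fibroblast markers, 7 were tested, and 5 of these were upregulated. Pdgfrb went the other way, at a log2 fold change of -0.36 (edgeR adjusted p = 0.194). The summed level of the fibroblast markers was 8728 to 9586 normalized CPM in Ctrl and 15717 and 16495 in Confine. Thy1 and Lum had at most 2 counts, and Dcn at most 2 in Ctrl and 27 in Confine. Leukocyte markers summed to 15.8 to 17.9 normalized CPM in Ctrl and 35.6 and 41.3 in Confine. Of the 4 tested, Cd68, Csf1r and Cd14 were upregulated and Lyz2 was downregulated, while the defining markers Ptprc, Adgre1, Itgam and Cd3e had at most 2 counts. Endothelial markers summed to 0.60 to 1.36 normalized CPM in Ctrl and 2.43 and 2.70 in Confine. Vwf, the 1 endothelial marker tested, was upregulated, with 7, 17 and 7 counts in Ctrl and 72 and 64 in Confine (edgeR adjusted p = 0.00032). Epithelial markers summed to at most 0.675 normalized CPM. The part of other cells in the values of the 10 genes was not tested.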

How the data were processed

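RNA-seq counts of 3 Ctrl and 3 Confine MEF samples were analysed. The authors purified polyadenylated RNA, made dUTP-based libraries and deposited raw read counts per gene without normalization. Per the labels, processing used Trim Galore 0.6.10, HISAT2 2.1.0, SAMtools 1.5 and featureCounts with mm10. The annotation release, strand setting and treatment of multimapping reads are not given in the sources used here and could move counts between overlapping or similar genes. Of the 10 genes, Mdm4 overlaps another gene (the pseudogene Gm29257, opposite strand, no shared exon bases). Of 55335 identifiers, 55154 matched GENCODE M21 without version.

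The 2 columns with identical counts were counted once. Genes were filtered (filterByExpr), normalized by TMM and tested in R 4.3.3 with edgeR 4.0.16 and no replicate block (3 residual degrees of freedom, prior median 14.8). Intervals of fold changes use the t distribution with both added. Copies of at least 300 bases and 95% identity were searched with blastn 2.17.0. Scripts were tested on simulated data. Depth was 22287210 to 32537550 counts, and the floor of 3 counts covers counting error only, as these reads carry no molecular identifiers.

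Genes and lists were chosen with earlier results of these data known. Named besides the 10 genes were Cdkn1a, Cdkn2a, Bax, Bbc3, Gdf15 and, per list and direction, up to 4 genes with the largest absolute log2 fold change among those passing. Alternatives were DESeq2 1.42.0, limma-voom (limma 3.58.1), other scalings and filters, the study's cutoff on the log2 fold change (1.5), a replicate block, all columns as separate samples and leaving out each library.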

Additional observations from a re-analysis of the deposited data

How the results depend on the processing

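The cause of each change below was not tested. Leaving out a Confine library keeps 1, assumed to vary like the Ctrl libraries. Fewer of all tested genes passed then than in the main fit, so calls lost in those fits are not particular to the genes and lists here. The genes passing among the 10, 2 higher and 1 lower in Confine, became 0 and 2 with library size alone, 1 higher with RLE size factors, 0 and 0 with an absolute log2 fold change above 1.5 required, 2 lower with all columns as separate samples, and from 0 to 4 higher and 0 to 2 lower with each library left out. Library size alone called 4249 genes, 34.0% of them higher, against 3654 and 55.7% with TMM.

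The replicate numbers do not pair the samples by any label. The difference between Ctrl replicates 2 and 3 had a correlation of -0.05 with that between the repeated library and Confine replicate 3. This takes the repeated library as number 2. With that library as number 1, the difference between Ctrl replicates 1 and 3 gave 0.05. Both correlations were taken over tested genes in log2 CPM. With the replicate block, 4933 genes passed with the repeated library as number 1 and 2528 as number 2 (a fit added after seeing the data). Of the 10 genes, 4 were higher and 2 lower as number 1 and 0 and 0 as number 2. Death targets lower were 5 and metabolic targets lower 2 as number 1, and regulators were 1 higher and 3 lower as number 2 with the block.

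Death targets lower, 3 in the main result, were 6 with library size alone, 1 with at least 10 counts in every library, 5 with all columns as separate samples and 1 to 5 with a library left out. Metabolic targets lower were 2 with library size alone and 0 to 2 with a library left out, and those higher 4 to 7. Regulators were 0 to 3 higher and 1 to 7 lower, arrest and repair targets 3 to 7 higher and 1 to 2 lower, and DREAM genes 9 to 12 lower with a library left out. Requiring an absolute log2 fold change above 1.5 left 0 regulators higher and 1 lower, 3 arrest and repair targets higher and 1 lower, 1 death target lower, 3 metabolic targets higher and 0 lower, and 7 DREAM genes lower.

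Small log2 fold changes changed sign. Mdm4 had -0.11 with library size alone, and leaving out a library moved it between -0.073 (without Confine replicate 3) and 0.26. Zmat3 had 0.11 with the block as number 1, and with a library left out between -0.27 and 0.097 (without Ctrl replicate 2). Gdf15 had 0.30 with that block, 0.28 without Ctrl replicate 2, and between -1.94 and 0.56 (without the repeated Confine library) over these fits. Bbc3 ranged from -0.14 to 0.042, the latter without the repeated Confine library.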
